A study of Mus musculus with 6 samples.

Results

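Macrophage identity genes were followed in cultures labelled as mouse mesenchymal stem cells, the stromal cells that can form fat, bone and cartilage. The set was a fixed list of 36 genes, matched by symbol to probe sets that carry that symbol alone, with the probe set of the highest mean taken for each gene. Of the 36 genes 35 had such a probe set, out of 18193 genes measured on the array, and Lyn had none and is not analysed here. A usable signal was taken as a log2 mean of 6 or more in either group. That level was reached by 32 of the 35 genes, against 9302 of all 18193. Cx3cr1, Fcgr1 and Cd163 lay below it.

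The study set cultures that received 12 h of broadband terahertz pulses against unexposed cultures placed beside them. The radiation was centred near 10 THz, with pulses of 35 fs at 1 kHz and an average power density of 1 mW/cm2. There were 3 independent experiments, each with 1 irradiated and 1 control array, so 6 arrays and 3 pairs. Both groups were commercially supplied mouse cells, with no strain or age in the labels, grown with 5% serum and held at 26 to 27 °C while 1 of each pair was irradiated. Both groups had also been given, again 48 h before that, a mixture that drives fat cell formation: dexamethasone (1 µM), IBMX (100 µM), insulin (5 µg/ml) and rosiglitazone (1 µM). RNA was taken at the end of the irradiation. Nothing in the labels says whether the 3 experiments began from separate lots of cells, so the p-values measure the spread between these arrays. All values below are deposited log2 levels of a probe set, so levels of different genes are not compared, and having 3 arrays in a group limits precision.

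Macrophages are phagocytes of the blood-forming lineage. They depend on the growth factor receptor Csf1r, and the transcription factor PU.1, encoded by Spi1, drives many of their genes. They take up antibody-coated particles through Fc receptors, which signal through small adaptor proteins with a tyrosine motif, called ITAM, to the kinases Syk and Btk. Fat tissue and bone marrow hold resident macrophages beside the stromal cells, and plastic-adherent cultures from mouse marrow can carry them along. CD45, encoded by Ptprc, is by convention a marker that cultured mesenchymal stem cells lack.

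PU.1 binds purine-rich sites with the core GAGGAA, so the promoters of the genes were searched for it. RefSeq promoters of GRCm38.p6, each from 250 bases before to 50 after a start site, were listed for 27 of the 36 genes. The core stood on either strand in at least 1 promoter of 17 of the 27 genes (63.0%), against 8446 of 27025 genes in the table (31.3%). By promoter it stood in 19 of 33 (57.6%) against 28.3% of 32851. In the 250 bases before the start alone it stood in 13 of the 27 (48.1%) against 25.9%. Promoter stretches of 60 bases, all ending before the start site, are shown for Mrc1, Clec7a, Syk and Fcgr2b, which passed a test between experiments. Plek, Laptm5 and Fcgr3 are shown as further examples with the core. Of the other genes that passed that test, Lcp2 held the core only after the start, and Csf1r and Spi1 had no listed promoter. The core also stood before the start in Aif1, Cd53, Cd68, Csf2ra, Fcgr1, Ptprc and Trem2, which are not shown. The stretches run 5′ to 3′ on the strand of the gene, and capitals mark the core, written TTCCTC where it lies on the other strand.
Mrc1, chr2:14229352-14229411, + strand: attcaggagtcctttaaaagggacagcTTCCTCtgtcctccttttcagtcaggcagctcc
Clec7a, chr6:129472843-129472902, - strand: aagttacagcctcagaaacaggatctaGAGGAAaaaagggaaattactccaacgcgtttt
Syk, chr13:52596822-52596881, + strand: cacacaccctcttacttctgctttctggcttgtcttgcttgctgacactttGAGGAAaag
Fcgr3, chr1:171059404-171059463, - strand: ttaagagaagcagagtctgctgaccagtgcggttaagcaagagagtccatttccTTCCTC
Plek, chr11:17008747-17008806, - strand: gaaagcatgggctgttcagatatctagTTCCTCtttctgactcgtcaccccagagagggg
Laptm5, chr4:130913251-130913310, + strand: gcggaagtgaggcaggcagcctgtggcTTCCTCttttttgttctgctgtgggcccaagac
Fcgr2b, chr1:170976072-170976131, - strand: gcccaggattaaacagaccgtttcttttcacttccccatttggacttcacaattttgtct

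Counted from the start site, with -1 as the last base before it, the core began at -9 in Syk, -38 in Laptm5 and -61 in Plek. Fcgr3 and Clec7a have 2 listed starts each, which place it at -6 or -15 and at -90 or -96. Syk also has 2 listed starts, and the core stood in the promoter of only 1 of them. Mrc1 held 3 copies, at -180, -167 and -35, and the stretch shows the last. Fcgr2b held no copy in its stretch or in the rest of its 1 listed promoter, which says only that these letters are not in this window. The longer sequence GAGGAAGT, which contains the core, was in 1 of 27 genes, Cd53, against 3.69% of all genes. The TATA sequence TATAAA was in 3 of 27 genes against 15.7%, the AP-1 sequence TGANTCA in 5 of 27 against 8.97% and the C/EBP sequence TTGCNNAA in 3 of 27 against 12.2%, each searched on both strands. These matches describe letters, and no binding was measured.

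The label was checked against marker lists. Stromal genes were well measured, with 13 of 14 at the level. Col1a1, a chain of type I collagen, read between 9.26 and 9.85 and the receptor gene Pdgfra between 8.47 and 9.02. The exception was Thy1, a usual surface marker of mesenchymal stem cells, which read between 3.76 and 4.26. Fat cell genes reached the level in 10 of 10, with Adipoq, the adiponectin gene, between 13.35 and 13.63. Macrophage identity genes reached it in 32 of 35, so the arrays carried stromal, fat cell and macrophage transcripts side by side. Lymphoid and other blood lineages did not show this, with 1 of 8 T cell, 1 of 7 B cell, 1 of 6 NK cell, 2 of 9 neutrophil, 0 of 8 mast cell and 0 of 7 dendritic cell genes at the level. Osteoclast genes, from another descendant of the macrophage lineage, reached it in 5 of 10. In cultures measured in bulk, more cells of a type and more RNA per cell cannot be told apart.

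The macrophage genes differed more between experiments than between irradiated and control cultures. Experiment 1 gave the lowest value in both groups for 28 of the 35 genes, against 21.3% of all genes. The mean over the 35 genes was 9.40, 9.74 and 9.99 in the controls of experiments 1, 2 and 3 and 9.26, 9.85 and 9.89 in the irradiated cultures. Averaged over both groups, 32 of 35 genes were higher in experiment 3 than in experiment 1, against 53.7% of all genes, with a median log2 difference of 0.61 against 0.03. In the same limma fit 7 genes passed at an adjusted p under 0.05 for experiment 3 over experiment 1, against 0.533% of all genes that were higher there. They were Csf1r, Fcgr2b, Mrc1, Clec7a, Syk, Lcp2 and Spi1. None was lower, against 0.418% of all genes. Leaving out any 1 of the 6 arrays, which leaves its experiment with a single array, left 0 of the 35 and 0 of all 18193 genes past the threshold as higher, from 97 with all arrays; the 7 genes stayed higher, by 0.77 to 1.83 in the fits without an array of experiment 3. With dim probe sets left out of the fit 21 passed, beside 3.61% of all genes, and with an intensity trend and robust prior 23, beside 2.02%. Without any threshold on the adjusted p, 27 of 35 were higher at an unadjusted p under 0.05, against 10.8% of all genes, and 19 were higher by at least 1.5-fold, against 2.6%. Csf2ra, Cd52 and Coro1a were the 3 that were lower.

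Other contrasts of experiments gave no call. Experiment 2 over experiment 1 called 0 of 35 genes with limma, as it called 0.0% of all genes, with 33 of 35 higher by any amount, against 50.1%, and 24 of the 35 higher at an unadjusted p under 0.05, against 5.37%. Experiment 3 over experiment 2 also called 0 of 35, beside 0.0% of all genes, with 28 higher by any amount, against 54.9%, and a median difference of 0.14. The F test over the 3 experiments called 0 of 35 against 0.011% of all genes. As a sign of RNA quality, the mean 3′ minus 5′ log2 signal of the array's controls for beta-actin and Gapdh was 0.195 and 0.19 in experiment 1, 0.275 and 0.25 in experiment 2 and 0.375 and 0.385 in experiment 3, control first. It was thus also lowest in experiment 1 in both groups, and its part in the differences between experiments was not tested. Over the stromal list the mean was 9.65, 9.50 and 9.56 in the controls and 9.73, 9.58 and 9.57 in the irradiated cultures, and over the fat cell list 10.32, 10.53 and 10.61 and 10.53, 10.51 and 10.32.

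**Figure D1:**
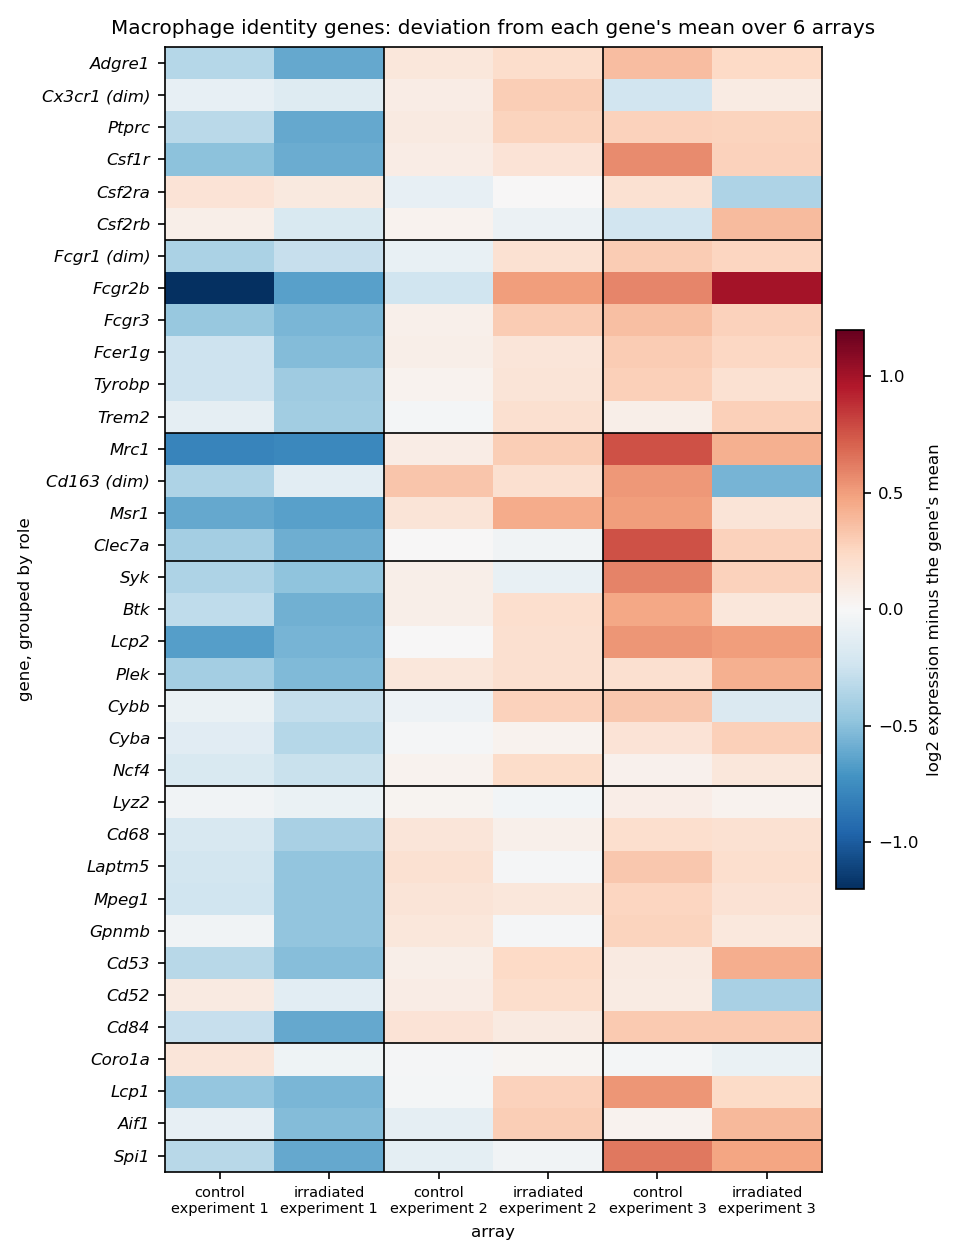
Heat map of log2 expression minus each gene's mean over the 6 arrays, for 35 macrophage identity genes in rows grouped by role and the control and irradiated array of each experiment in columns; dim marks a mean under 6 in both groups. The experiment 1 columns are the lowest of their group for 28 of 35 genes.

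Irradiation gave no call among these genes. No gene had a limma adjusted p under 0.05, with values from 0.530 to 0.988, and limma called 0.0% of all genes. At an unadjusted p under 0.05 there was 1 higher gene, Fcgr2b, against 3.7% of all genes, and 0 lower, against 4.61%. The groups overlapped in all 35 genes, while they were separate for 9.96% of all genes. The mean was lower by any amount in 24 of 35 genes, against 47.9% of all genes, and higher in 11, against 51.1%, with a median of -0.06 against 0.01. Those medians were -0.18, 0.11 and -0.08 in experiments 1, 2 and 3, so their sign differed between experiments. In all 3 experiments 7 genes were lower (15.1% of all genes), namely Cd68, Clec7a, Gpnmb, Laptm5, Lyz2, Mpeg1 and Syk, and 1 was higher (15.7% of all genes). For Gpnmb and Syk a second probe set at the level was not lower in all 3. The size of the mean irradiated minus control difference had a median of 0.10 over the 35 genes, as over all genes, while the range of the 3 experiment means had a median of 0.61 against 0.22. That range exceeded the size of the irradiation difference in 35 of 35 genes and in 79.9% of all genes.

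Among the surface and growth factor receptors, Csf1r, the receptor for the macrophage growth factors CSF1 and IL-34, read 12.48, 13.06 and 13.54 in the controls of experiments 1, 2 and 3. In their irradiated partners it read 12.38, 13.14 and 13.25, so experiment 1 was lowest in both groups. It was 1.95-fold higher in experiment 3 than in experiment 1, a log2 difference of 0.97 ± 0.13 (SE), with a limma adjusted p of 0.0426. Its other 2 probe sets differed by 1.46 and 1.31 between the same experiments and passed too. Irradiated minus control it differed by -0.10 ± 0.11 (SE), or -0.10, 0.08 and -0.29 in the 3 experiments.

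Adgre1, which encodes F4/80, the antigen used to identify mouse macrophages, read 9.87, 10.35 and 10.59 in the controls and 9.60, 10.43 and 10.46 in the irradiated cultures. Ptprc, the CD45 phosphatase of all nucleated blood cells, read 9.51, 9.94 and 10.11 in the controls and 9.22, 10.10 and 10.10 in the irradiated cultures. Both had their lowest values in experiment 1, and missed the threshold for experiment 3 over 1, with differences of 0.79 ± 0.13 (SE) and 0.74 ± 0.14 (SE) and limma adjusted p values of 0.0586 and 0.0702. A second probe set of Ptprc was dim, at 3.5.

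The receptors for granulocyte-macrophage colony-stimulating factor did not follow the experiments in this way. Csf2ra, the alpha chain, read 7.19, 6.92 and 7.2 in the controls and 7.14, 7.03 and 6.65 in the irradiated cultures. Csf2rb, the shared beta chain, read 9.15, 9.12 and 8.85 in the controls and 8.90, 9.01 and 9.46 in the irradiated cultures. In Csf2rb the pair of experiment 3 went against the other pairs, by 0.61 against -0.25 and -0.11, and its second probe set did likewise, by 0.72 against -0.47 and -0.13. Cx3cr1, the fractalkine receptor, was dim, with values between 4.32 and 4.84.

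Fc receptors showed the 1 difference with a single sign that passed at the unadjusted level. Fcgr2b, the Fc receptor that inhibits rather than activates, read 8.35, 9.31 and 10.13 in the controls and 8.90, 10.05 and 10.55 in the irradiated cultures. Each irradiated value was above that of its own control, by 0.55, 0.74 and 0.42, but the groups overlapped because the experiments lay further apart than the pairs. Its mean difference was 0.57 ± 0.11 (SE; 95% interval 0.32 to 0.83), or 1.48-fold, with an unadjusted p of 0.00131 and a limma adjusted p of 0.530. Without the replicate block its unadjusted p in the limma fit was 0.287. All 4 of its probe sets at the level were higher in all 3 experiments, with mean differences from 0.34 to 0.57, and 1 more was dim, at 2.41. Between experiments 3 and 1 it differed by 1.72 ± 0.13 (SE), 3.28-fold, the widest of the 35 genes, with a limma adjusted p of 0.0264.

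The activating receptors and their adaptors had smaller irradiation differences. Fcgr3, a low-affinity activating receptor, read 11.58, 12.09 and 12.39 in the controls and 11.48, 12.34 and 12.31 in the irradiated cultures. Fcer1g, the ITAM chain that Fcgr1 and Fcgr3 signal through, read 11.94, 12.26 and 12.49 in the controls and 11.67, 12.33 and 12.44 in the irradiated cultures. Tyrobp, the adaptor DAP12, read 12.47, 12.76 and 13.00 in the controls and 12.29, 12.87 and 12.90 in the irradiated cultures. These 3 genes were lowest in experiment 1 in both groups, and their irradiation differences of 0.02, -0.08 and -0.06 had 1 sign in experiment 2 and the other in experiments 1 and 3. Trem2, a lipid receptor that signals through Tyrobp, read 9.95, 10.04 and 10.13 in the controls and 9.64, 10.25 and 10.35 in the irradiated cultures. Fcgr1, the high-affinity receptor, was dim, between 4.95 and 5.63, and also lowest in experiment 1.

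Scavenger and pattern receptors held 2 of the 7 genes that passed between experiments. Mrc1, the mannose receptor of tissue macrophages, read 11.61, 12.50 and 13.17 in the controls and 11.63, 12.70 and 12.83 in the irradiated cultures. Experiment 3 was 2.60-fold above experiment 1, a log2 difference of 1.38 ± 0.16 (SE) with a limma adjusted p of 0.0316. Clec7a, the beta-glucan receptor Dectin-1, read 6.20, 6.61 and 7.37 in the controls and 6.02, 6.56 and 6.88 in the irradiated cultures, a difference of 1.02 ± 0.14 (SE) between the same experiments with a limma adjusted p of 0.0432. Both genes hold the GAGGAA core in the promoter stretches shown above, as 17 of the 27 genes searched hold it in the full window. Fcgr2b, which also passed, had no copy in its full window. A link between the core and these differences was not tested.

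Clec7a was lower after irradiation in all 3 experiments, by -0.18, -0.05 and -0.49, with a limma adjusted p of 0.650. Msr1, a class A scavenger receptor, read 10.36, 11.13 and 11.47 in the controls and 10.32, 11.42 and 11.13 in the irradiated cultures. Its 4 probe sets all read highest in experiment 3 among controls and in experiment 2 among irradiated cultures. Cd163, the haemoglobin scavenger receptor, was dim, between 3.33 and 4.41.

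Kinases and signal adaptors were all 4 lowest in experiment 1 in both groups. Syk, the kinase that binds phosphorylated ITAMs, read 8.20, 8.64 and 9.16 in the controls and 8.08, 8.48 and 8.84 in the irradiated cultures. Lcp2, the adaptor SLP-76, read 6.62, 7.28 and 7.81 in the controls and 6.72, 7.47 and 7.78 in the irradiated cultures. Both passed for experiment 3 over 1, Syk by 0.86 ± 0.12 (SE) with a limma adjusted p of 0.0430 and Lcp2 by 1.13 ± 0.12 (SE) with a limma adjusted p of 0.0305. With the mean of all 4 Syk probe sets, 2 of them dim, Syk missed the threshold (limma adjusted p = 0.0675).

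On the probe set used, Syk was also lower after irradiation in each experiment, by -0.12, -0.16 and -0.32, with a limma adjusted p of 0.652. Its second probe set at the level differed by -0.11, 0.14 and -0.57, so it was higher in experiment 2. Btk, a kinase downstream of Syk, read 6.80, 7.18 and 7.57 in the controls and 6.53, 7.31 and 7.24 in the irradiated cultures. Plek, the protein kinase C substrate pleckstrin, read 11.82, 12.37 and 12.42 in the controls and 11.70, 12.42 and 12.66 in the irradiated cultures. The 3 probe sets of Plek did not share a direction after irradiation, with differences from -0.26 to 0.17, while all 3 were higher in experiment 3 than in experiment 1 by 0.73 to 0.78.

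Subunits of the phagocyte NADPH oxidase, which makes superoxide, held none of the 7 genes that passed. Cybb, the catalytic subunit, read 10.11, 10.13 and 10.52 in the controls and 9.91, 10.47 and 10.02 in the irradiated cultures. Its membrane partner Cyba read 11.49, 11.61 and 11.79 in the controls and 11.28, 11.67 and 11.91 in the irradiated cultures. Ncf4, a cytosolic subunit, read 8.35, 8.58 and 8.59 in the controls and 8.27, 8.76 and 8.67 in the irradiated cultures. On these probe sets all 3 genes were lowest in experiment 1 in both groups, but by 0.26 to 0.47 against experiment 3, and none passed. Another Cybb probe set read 8.08, 8.02 and 8.19 in the controls and 7.94, 8.53 and 7.59 in the irradiated cultures. That one was lowest in experiment 1 in neither group, while the remaining Cybb probe set was lowest there in both. Over the rest of the oxidase list Ncf1, another cytosolic subunit, differed by -0.33 after irradiation, Rac1 by -0.03 and Rac2 by -0.14, none of them past the threshold.

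Among lysosomal, granule and membrane genes the mean after irradiation was lower by any amount in 7 of 8, against 47.9% of all genes, and lower in all 3 experiments in 5 of 8, against 15.1%. None of the 8 passed. Over all 35 genes 7 were lower in all 3 experiments (20.0%), so the count of this 1 role is not read as a trait of it. The 5 include Lyz2, with differences of only -0.04, -0.07 and -0.03, and Gpnmb, whose second probe set was not lower in all 3. Lyz2, the macrophage lysozyme, read 14.14, 14.22 and 14.26 in the controls and 14.10, 14.15 and 14.23 in the irradiated cultures. Those values lie close to the highest on the arrays, 14.41 to 14.53, where differences can be compressed, and its near-identical copy Lyz1 could share the signal. Cd68, a lysosomal glycoprotein, read 12.28, 12.62 and 12.67 in the controls and 12.08, 12.53 and 12.65 in the irradiated cultures. Mpeg1, the pore-forming perforin-2, read 12.15, 12.54 and 12.64 in the controls and 11.91, 12.52 and 12.56 in the irradiated cultures. Cd68 and Mpeg1 thus had 1 sign after irradiation, with mean differences of -0.10 and -0.11 that are smaller than the spread of either group.

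Laptm5, a lysosomal membrane protein of blood cells, read 11.95, 12.35 and 12.49 in the controls and 11.70, 12.16 and 12.37 in the irradiated cultures. Gpnmb, a glycoprotein of lipid-laden macrophages and osteoclasts, read 12.19, 12.37 and 12.50 in the controls and 11.76, 12.22 and 12.36 in the irradiated cultures. On these probe sets each of the 2 genes was lower in every irradiated culture than in its own control, by -0.19 ± 0.10 (SE) and -0.24 ± 0.11 (SE) on average. Their limma adjusted p values were 0.659 and 0.631, and their groups overlapped. A second Gpnmb probe set at the level differed by -0.44, -0.19 and 0.04, so it was not lower in experiment 3.

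Cd53, a tetraspanin of white blood cells, read 11.75, 12.15 and 12.19 in the controls and 11.57, 12.32 and 12.52 in the irradiated cultures. The signalling lymphocyte family receptor Cd84 read 8.0, 8.44 and 8.59 in the controls and 7.66, 8.39 and 8.59 in the irradiated cultures. Both were lowest in experiment 1. Cd52, a small surface glycoprotein, was not, at 7.6, 7.58 and 7.59 in the controls and 7.36, 7.70 and 7.10 in the irradiated cultures.

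The cytoskeletal genes split. Lcp1, the actin bundler L-plastin, read 10.21, 10.65 and 11.20 in the controls and 10.12, 10.95 and 10.90 in the irradiated cultures, lowest in experiment 1. Coro1a, an actin regulator of white blood cells, read 7.0, 6.84 and 6.83 in the controls and 6.80, 6.88 and 6.78 in the irradiated cultures, without that pattern. Aif1, which encodes IBA1, read 6.46, 6.45 and 6.60 in the controls and 6.03, 6.85 and 6.94 in the irradiated cultures, and its pair differences of -0.43, 0.40 and 0.34 differed in sign.

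Spi1, which encodes PU.1, read 8.47, 8.69 and 9.44 in the controls and 8.19, 8.76 and 9.28 in the irradiated cultures. It was 2.04-fold higher in experiment 3 than in experiment 1, a difference of 1.03 ± 0.13 (SE) with a limma adjusted p of 0.0370. After irradiation it differed by -0.28, 0.07 and -0.16 (mean -0.12 ± 0.11, SE).

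**Figure D2:**
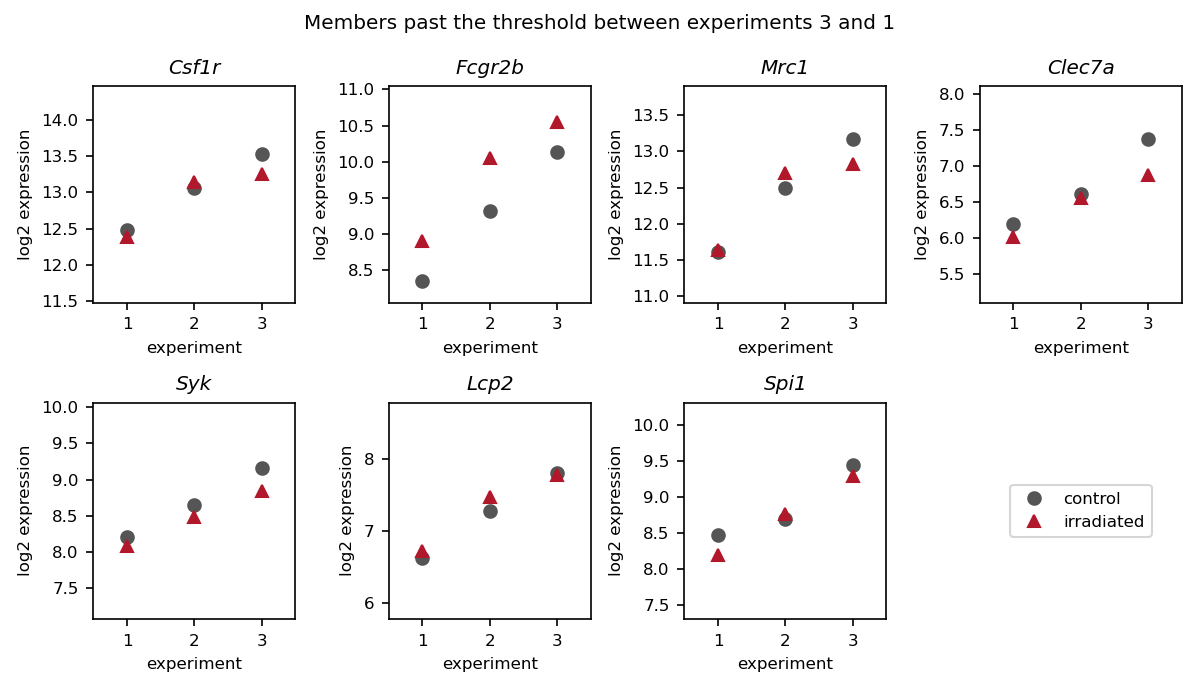
Log2 expression of the 7 genes past the adjusted threshold for experiment 3 over experiment 1, with 1 panel per gene, control arrays as grey circles and irradiated arrays as red triangles; each panel spans the same range of 3 log2 units and does not start at 0. All 7 lie lowest in experiment 1 in both groups, and Fcgr2b is the gene whose irradiated value lies above its control in every experiment.

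Probe sets of a gene mostly shared the direction between experiments. Of 11 genes with more than 1 probe set at the level, 9 had a single direction for experiment 3 over 1, and Csf2rb and Cybb did not. For irradiated minus control 10 of the 11 had a single direction, with Plek as the exception. Laptm5 showed how far sizes could differ, with 0.16 to 1.15 for experiment 3 over 1 over its 3 probe sets at the level.

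Other genes of mononuclear phagocytes, the cells that include monocytes and macrophages, were also lowest in experiment 1. Of 49 measured genes outside the 36, 40 reached the level, 39 of the 49 were lowest in experiment 1 in both groups, against 21.3% of all genes, and 44 were higher in experiment 3 than in experiment 1, against 53.7%. For that contrast 17 of the 49 passed as higher, against 0.533% of all genes, and 0 as lower, with a median of 0.75. Among these, chosen after their values were seen, were the complement genes C1qa, C1qb and C1qc, at 1.21 ± 0.13 (SE), 1.26 ± 0.14 (SE) and 1.46 ± 0.13 (SE), with limma adjusted p values from 0.0293 to 0.0308. Ms4a7, a membrane protein of mature macrophages, differed by 1.62 ± 0.11 (SE) and Irf8, a transcription factor that works with PU.1, by 1.29 ± 0.13 (SE). Here too no gene passed with any 1 array left out.

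After irradiation 36 of those 49 genes were lower, against 47.9% of all genes, 12 higher, against 51.1%, and 1 equal. Their median was -0.10. Limma called 0 of 49, beside 0.0% of all genes. At an unadjusted p under 0.05 in the same fit 7 were lower, against 4.61% of all genes, and 0 higher, against 3.7%. Clec4n, the fungal receptor Dectin-2, differed by -0.44, -0.52 and -0.80, a mean of -0.59 ± 0.11 (SE) with a limma unadjusted p of 0.00141. Ccr1, a chemokine receptor, differed by -0.39, Clec4d, another C-type lectin, by -0.45 and the lipopolysaccharide receptor gene Cd14 by -0.73. These 4 were named for having the largest statistics of the list at the level, a choice that favours genes with a single sign. Each was lower in all 3 experiments, which is therefore not read as a trait of the list. None passed the adjusted threshold.

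The signalling genes of white blood cells were mostly higher in experiment 3. Above experiment 1 were 27 of 29, against 53.7% of all genes, with a median of 0.52 against 0.03. For that contrast 1 of 29 passed as higher, against 0.533% of all genes. It was Vav1, an exchange factor phosphorylated by Syk, which differed by 1.07 ± 0.11 (SE) with a limma adjusted p of 0.0305. Vav1 was lower after irradiation by -0.31, -0.31 and -0.29, among 19 of 29 that were lower, against 47.9% of all genes. Limma called 0 of 29, beside 0.0% of all genes. At an unadjusted p under 0.05 in the same fit 2 were lower, against 4.61%, and 0 higher, against 3.7%. Pik3r5, a subunit of a phosphoinositide kinase, differed by -0.39, Skap2 by -0.22 and the kinase Fes by 0.26.

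Growth factors that macrophages need were also measured. Csf1, made by stromal cells, differed by -0.88 between experiments 3 and 1, opposite to its receptor Csf1r, with a limma adjusted p of 0.0753. After irradiation it differed by 0.04, 0.07 and 0.65. Tnfsf11, the RANKL cytokine that turns macrophages into osteoclasts, was higher after irradiation in all 3 experiments, by 0.19, 0.50 and 0.36, without passing (limma adjusted p = 0.558). The chemokines Ccl2 and Cx3cl1 differed by -0.12 and -0.20. Of the 12 measured non-members of this list 7 were higher after irradiation, against 51.1% of all genes, and 5 lower, against 47.9%. Limma called 0, beside 0.0% of all genes. At an unadjusted p under 0.05 in the same fit 1 was higher, against 3.7%, and 0 lower, against 4.61%.

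Activation genes did not form 1 block. Of alternative activation genes outside the 36, 10 of 12 were higher in experiment 3 than in experiment 1, against 53.7% of all genes. Past the threshold as higher were 2, Clec10a and Cd209f, against 0.533% of all genes. Clec10a, a galactose-type lectin, differed by 2.24 ± 0.18 (SE), with a limma adjusted p of 0.0264. Cd209f lay below the level of 6. Retnla, a secreted product of these macrophages, differed by 0.05 between the same experiments and by -0.40 after irradiation. The interleukin-4 receptor gene Il4ra and Tgm2 differed after irradiation by 0.13 and 0.24. Of 15 classical activation genes 8 were higher in experiment 3, against 53.7% of all genes. Ptgs2, the inducible cyclooxygenase, passed as lower, at -1.11 ± 0.17 (SE) with a limma adjusted p of 0.0469, against 0.418% of all genes. Ccl5, a chemokine below the level, passed as higher. Il6, Il18 and Socs3 differed after irradiation by 0.71, 0.30 and 0.29 and Ptgs2 by -0.56. Il1b, which lay below the level, differed by -0.65, -0.71 and -0.80, a mean of -0.72 (limma adjusted p = 0.36). Limma called 0 of the 15, beside 0.0% of all genes. At an unadjusted p under 0.05 in the same fit 2 were higher, against 3.7%, and 3 lower, against 4.61%.

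Markers of other cells differed between the experiments as follows. Over all genes 53.7% were higher in experiment 3 than in experiment 1, with 0.533% past the threshold as higher and 0.418% as lower. At the level 3797 of 9302 genes were higher, so dim genes were more often higher than genes at the level. Stromal genes had a median of -0.17 for experiment 3 over 1, with 6 of 14 higher, and Nt5e passed as lower, at -1.12 ± 0.12 (SE). Fat cell genes had a median of 0.03 with 6 of 10 higher and none past the threshold. Of the osteoclast genes 6 of 10 were higher, with a median of 0.09, and Atp6v0d2, a proton pump subunit also made by macrophages, passed at 1.38 ± 0.13 (SE). Genes of other blood lineages, mostly dim, were more often higher than lower in experiment 3 by any amount, except those of NK cells. None passed, and dim genes in general were also more often higher, so these counts are not read as a trait of the lineages. Higher were 8 of 8 T cell genes (median 0.26), 5 of 7 B cell genes (0.11), 8 of 9 neutrophil genes (0.31), 7 of 7 erythroid and platelet genes (0.31), 6 of 8 mast cell genes (0.25), 5 of 7 dendritic cell genes (0.08) and 2 of 6 NK cell genes (-0.07). Whether cell content set these differences was not tested.

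**Figure D3:**
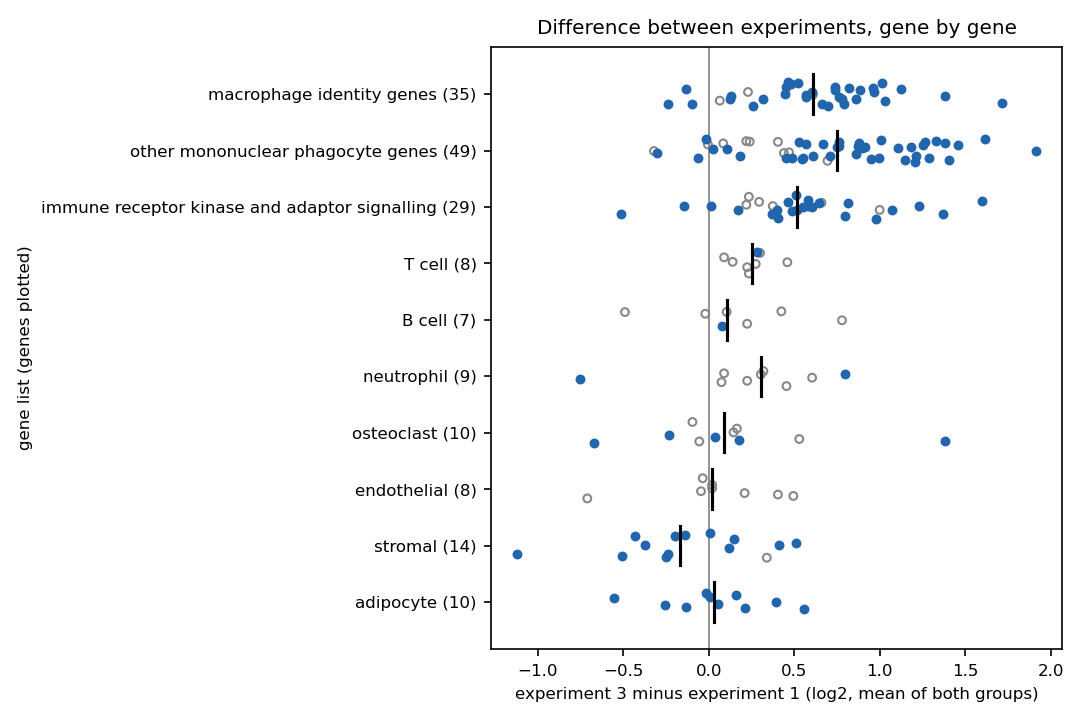
Log2 difference of experiment 3 minus experiment 1, averaged over both groups, with 1 point per gene and 1 row per list; filled points are genes at a mean of at least 6 in 1 group, open points are dimmer, black bars are medians, and vertical scatter within a row has no meaning. The macrophage identity genes lie mostly to the right of 0, at a median of 0.61, as do other mononuclear phagocyte genes at 0.75, while stromal genes have a median of -0.17 and fat cell genes of 0.03.

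**Figure D4:**
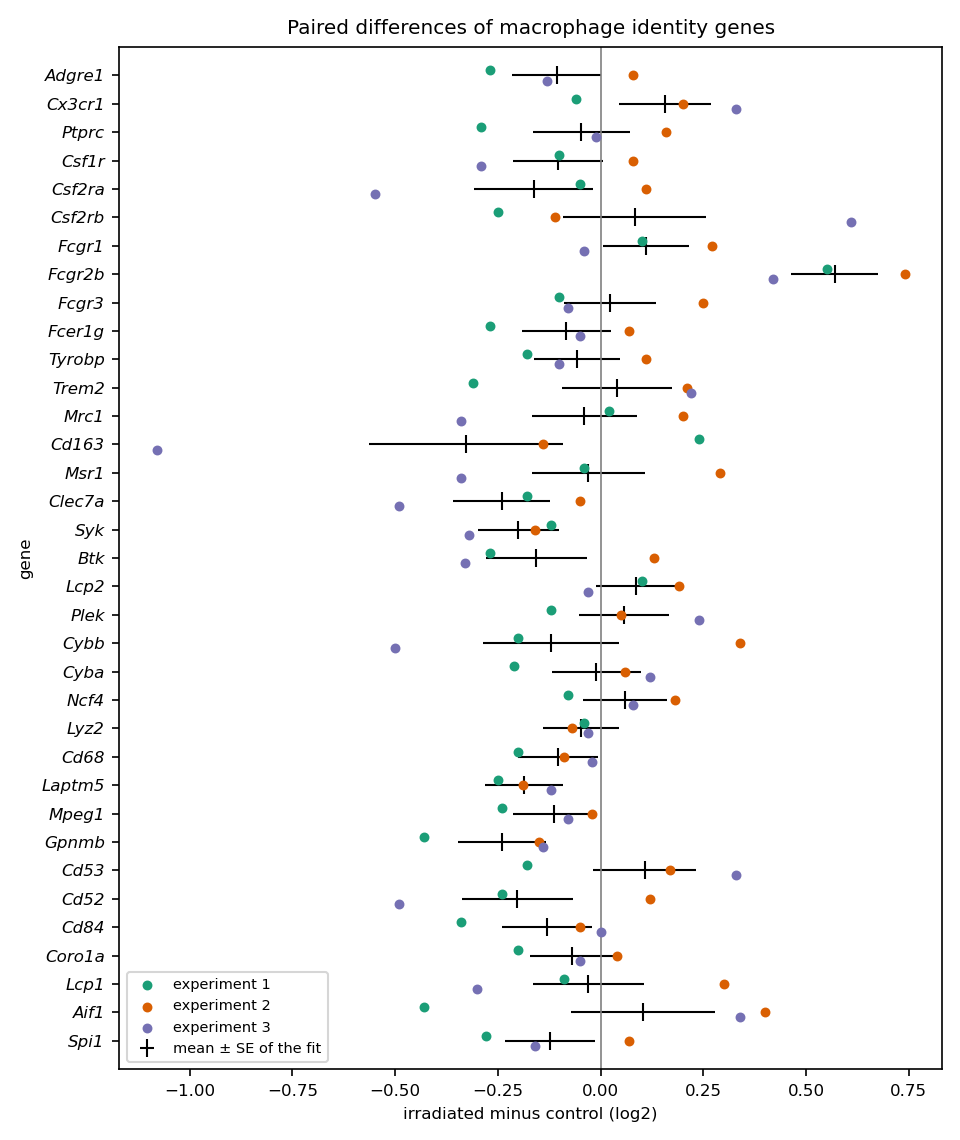
Irradiated minus control log2 difference for each of 35 macrophage identity genes, with coloured points for the 3 experiments and a black bar for the mean and its SE from the limma fit. Most means lie near 0 and the points of a gene often fall on both sides, except for Fcgr2b, whose 3 differences of 0.55, 0.74 and 0.42 stand to the right.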

How the data were processed

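Labelled RNA from 200 ng of total RNA was hybridised to an Affymetrix mouse array, per the labels' protocols. The authors deposited log2 expression per probe set, made with RMA, affy and limma, per the submitters' processing notes. For tool versions and a genome build, the sources used here give nothing. Of 45101 probe sets 64 array controls were left out, and 34945 of the remaining 45037 carried 1 symbol. Array medians lay between 4.75 and 4.80. A gene is its single-symbol probe set with the highest mean.

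Limma 3.58.1 in R 4.3.3 (lmFit, eBayes, two-sided) fitted group and experiment over all 45037 probe sets, with Benjamini-Hochberg adjustment at 0.05. Each probe set had 2 residual degrees of freedom, to which eBayes added 4.52. Experiments were compared by contrasts in the same fit. The fit was also run on simulated data with known differences, as a check of the code. Those data held no differences between experiments other than the ones put in, so that run does not bear on the calls above. Pairs come from the design text, which sets each irradiated culture against its own control. Deviations from the group means correlated at 0.787, 0.028 and 0.324 within the 3 pairs, and across pairs at up to 0.552 (irradiated 2 with control 3), above the values within pairs 2 and 3.

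The 36 genes and all lists were chosen with earlier results of these data known. Per-array values were given for genes at the level of 6. The rule stopped at 30, and the last 2 in its order, Aif1 and Spi1, were added. From other pathway lists up to 4 non-members at the level with the largest statistic were named; others named from them, and Thy1, Nt5e and Atp6v0d2, were chosen after their values were seen. Promoters come from RefSeq (GRCm38.p6). A planned search of protein motifs was not run. Alternatives changed the block, scaling, weights, prior, filter, probe set choice or left out arrays. Figures used matplotlib 3.10.9.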

Additional observations from a re-analysis of the deposited data

Results flagged for a closer look

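Spiked-in hybridisation controls, which enter none of the comparisons, read 0.50 higher (log2) in the irradiated culture of experiment 3 than in its control, at 11.73 against 11.23. They are given because they lie outside the main measurement and exceeded the control level. In experiments 1 and 2 the same difference was 0.08 and -0.03. Without the irradiated array of experiment 3 the differences of the 7 genes between experiments 3 and 1 lay between 0.95 and 1.83. The part of these controls in the results was not tested.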

How the results depend on the processing

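For irradiated minus control, no macrophage identity gene and no other mononuclear phagocyte gene passed the adjusted threshold under any alternative run, and both medians stayed below 0. At an unadjusted p under 0.05 in the limma fit the identity genes numbered 1 higher, against 3.7% of all genes, and 0 lower, against 4.61%. The share over all genes was not counted under the alternatives, so their counts below describe these lists only. Without the replicate block, and with the experiment as a random replicate block, 0 were higher. Leaving out 1 experiment gave 1 to 2 higher (2 without experiment 1, Aif1 and Fcgr2b) and 0 to 1 lower (1 without experiment 2, Cd52). Lower genes numbered 1 with dim probe sets left out, 2 with an intensity trend and robust prior, 1 with array weights and 1 with the mean of all probe sets of a gene. The other phagocyte genes numbered 0 higher and 7 lower. They gave 2 lower without the replicate block, and 1 higher and 3 lower with the random replicate block. Leaving out 1 experiment gave 0 to 1 higher and 2 to 7 lower, with 2 lower without experiment 1. They gave 1 higher with dim probe sets left out, 1 higher and 12 lower with the trend and robust prior, and 1 higher with array weights.

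Between experiments 3 and 1, 7 identity genes and 17 other phagocyte genes passed as higher, against 0.533% of all genes. That share was 3.61% with dim probe sets left out and 2.02% with the trend and robust prior. With dim probe sets left out 21 and 26 passed, with the trend and robust prior 23 and 28, and with any single array left out 0 and 0. Those last fits have fewer arrays and the cause of the loss was not tested further. For experiment 2 over 1 the trend and robust prior gave 2 and 12, from 0 and 0. The F test, also 0 and 0, gave 3 and 13 with dim probe sets left out and 20 and 22 with the trend and robust prior. It gave 3 and 8 with array weights, and 1 and 1 with 1 probe set per gene. For experiment 2 over 1 and the F test the share over all genes was not counted under these alternatives. Their rises are therefore not read as a trait of the listed genes. Signs of the irradiation difference turned in up to 11 of 35 genes, the most without experiment 3.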
